A study of Mus musculus with 6 samples.

Results

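AP-1 is a transcription factor built as a dimer of basic leucine zipper proteins, in which a Jun protein pairs with another Jun protein, a Fos protein or a related ATF or Maf protein. Fos proteins cannot form stable pairs with each other and depend on a Jun partner, so that the mix of subunits in a cell sets which dimers can form. Most of the genes respond quickly to growth factors, cytokines and stress through MAP kinases. In bone the family has a long history, since Fos was found as the mouse counterpart of the transforming gene of a virus that causes osteosarcoma, and Fosl1, Fosl2 and Junb take part in bone formation in mice. The members followed here were Fos, Fosb, Fosl1 and Fosl2 of the Fos family, Jun, Junb and Jund of the Jun family, the ATF protein Atf3 and the small Maf protein Maff. All 9 were represented, by 11 probe sets whose annotation names 1 gene, of 22690 probe sets and 13213 genes in all.

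RNA came from mOS482 cells, an osteosarcoma line derived from a mouse tumour without Rb and p53, so that cells of both groups lack both tumour suppressors. The cells had been stably infected and selected in hygromycin, and expressed a hairpin against Sox2 (3 arrays) or a scrambled hairpin (3 arrays), with 1 Affymetrix mouse array per plate. The labels describe triplicate plates of infected cells, so the p-values reflect plate and array variation within 1 infected population per hairpin, and a difference between the 2 infected populations cannot be told apart from an effect of the hairpin. Sox2 is a transcription factor of stem cells, and the series deals with its role in osteosarcoma cells with stem cell properties.

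All values are log2 values that had been centred per probe set near the scrambled arrays. They carry differences between arrays but no level, so no gene's signal over background is known, the osteoblast markers of the line could not be checked for presence, and no member's level can be set against another's. Sox2 itself was not lower on the arrays labelled Sox2 shRNA, at 0.17, 0.055 and 0.58 there and 0.069, -0.039 and -0.033 on the scrambled arrays (difference 0.27 ± 0.14, limma adjusted p = 0.154). Directions below are therefore those of arrays so labelled, whose Sox2 RNA was not seen to fall. The array spike-ins, RNAs added in fixed amounts, also differed. Their 45 probe sets averaged 0.67, 0.32 and 0.27 on the arrays labelled Sox2 shRNA, and 0.11, -0.060 and -0.10 on the scrambled arrays. The groups did not overlap, with an exact two-sided permutation p = 0.1, the smallest that 3 arrays against 3 can give, and array 1 of the Sox2 shRNA group stood apart. The hybridisation controls among them differed by 0.84 and the controls added before labelling by 0.17.

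Of the 9 AP-1 genes, 4 were higher and 3 were lower on the arrays labelled Sox2 shRNA at a limma adjusted p under 0.05. Fosl2 rose 2.81-fold and Jun fell to 0.401 of its scrambled level, and both passed 2-fold. Fos, Jund and Maff rose by less, Fosl1 and Junb fell by less, and Fosb and Atf3 were not called. Across all genes tested 38.5% were called, 16.8% higher and 21.8% lower, and 6.3% were called with at least a 2-fold change (2.68% higher and 3.62% lower), so that many genes of any list move between these groups. The member median was -0.17, Fosb's own value, against 0.078 over all genes. The groups did not overlap in 7 of the 9 members, against 56.9% of all genes, with 4 wholly higher (29.3% of all genes) and 3 wholly lower (27.6%). Tested as single probe sets, 7 of the 11 were called, against 35.1% of all probe sets, and Junb (adjusted p = 0.0514) and Maff (0.0537) then just missed the threshold. By size of the difference Fosl2 stood at rank 270 and Jun at rank 412 among the 13213 genes. Without scrambled array 3 the rises came to 2, since Fos and Maff were then not called.

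**Figure D1:**
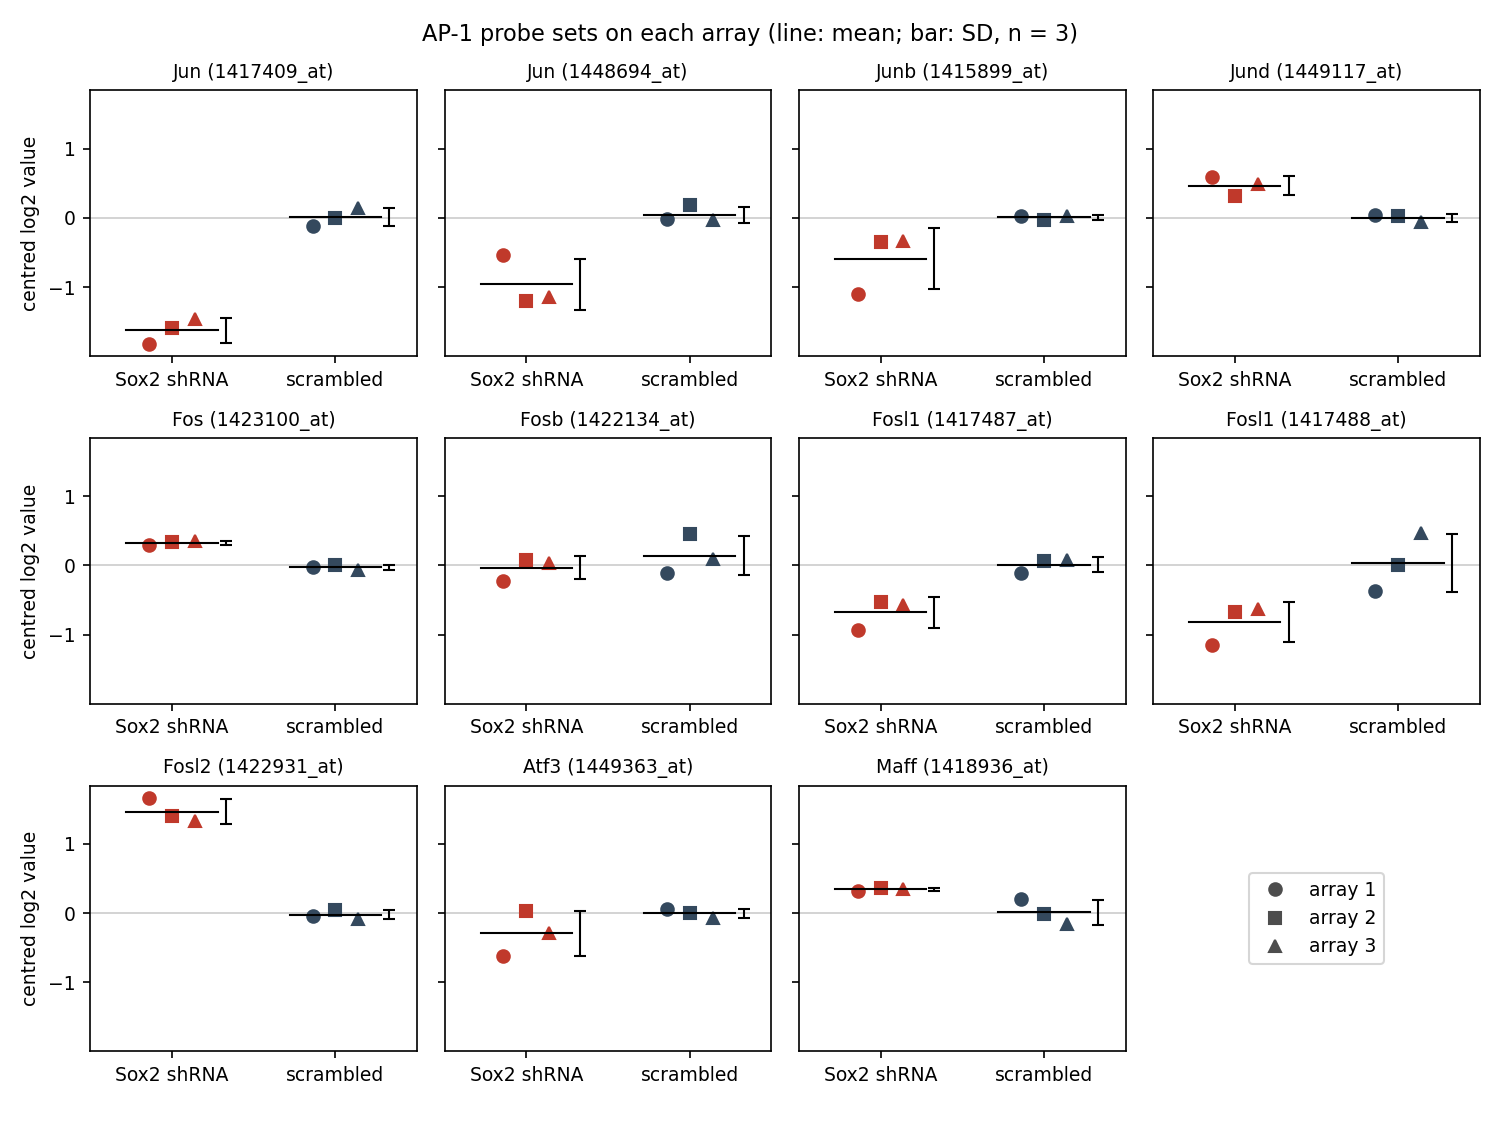
Centred log2 value (vertical axis) of each of the 11 AP-1 probe sets on the 3 arrays labelled Sox2 shRNA (red, left) and the 3 scrambled arrays (dark, right), with marker shape for the array number, a line for the mean and a bar for the SD (n = 3). Both Jun and both Fosl1 probe sets lie lower on the Sox2 shRNA arrays, Fosl2 lies higher, and array 1 of that group stands apart for Junb.

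Jun, the founding member of its family and a strong transcriptional activator, fell. Its first probe set read -1.83, -1.59 and -1.46 on the arrays labelled Sox2 shRNA, and -0.12, 0 and 0.14 on the scrambled arrays. The second read -0.54, -1.20 and -1.14 on the arrays labelled Sox2 shRNA, and -0.013, 0.18 and -0.031 on the scrambled arrays. Neither probe set overlapped between groups, and array 1 of the Sox2 shRNA group was the lowest by the first probe set and the least low by the second. Averaged over both, Jun fell by 1.32 (SE 0.093, 95% interval -1.54 to -1.10, limma adjusted p = 5.3e-05). The probe sets taken apart fell by 1.63 (SE 0.13) and 1.01 (SE 0.18). The interval of the average holds neither value, so it does not cover the disagreement between the probe sets. The call held in all 15 alternatives run, with values between -1.63 and -1.27. Those 15 include the second deposited table, whose values are equal, so that its outcome was fixed. The files place Jun on chromosome 4 from 94715724 to 94718899 on the minus strand, in a build they do not name.

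Junb, which in many settings counteracts Jun at shared sites, was lower too, and most strongly on 1 array. It read -1.10, -0.35 and -0.33 on the arrays labelled Sox2 shRNA, and 0.019, -0.036 and 0.031 on the scrambled arrays. Array 1 lay 0.76 below the mean of arrays 2 and 3, while the scrambled arrays spanned 0.067. The difference was -0.60 ± 0.20 (limma adjusted p = 0.0454). Without Sox2 shRNA array 1 it was smaller, at -0.34 ± 0.068, and still called (limma adjusted p = 0.0055). Junb was not called without scrambled array 1, 2 or 3 (adjusted p = 0.118, 0.101 and 0.124). Adjusted for the spike-in level of each array, its value turned to 0.10 (adjusted p = 0.787), and spike-ins were highest on the array where Junb was lowest.

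Jund, the Jun protein that is least tied to growth stimuli, went the other way. It read 0.59, 0.32 and 0.49 on the arrays labelled Sox2 shRNA, and 0.040, 0.020 and -0.068 on the scrambled arrays. Every Sox2 shRNA array lay above every scrambled one. The rise was 0.47 ± 0.097 (limma adjusted p = 0.0071), a 1.38-fold difference, and the call was lost after spike-in adjustment (0.28, adjusted p = 0.242). Junb and Jund are both on chromosome 8 in the files. The unequal change of Jund and Jun showed within each array, where the centred Jund value minus that of Jun was 1.77, 1.71 and 1.80 on the arrays labelled Sox2 shRNA, and 0.11, -0.070 and -0.12 on the scrambled arrays. The Jun value used there averages 2 probe sets, which read -1.83 and -0.54 on Sox2 shRNA array 1. The evenness of the gap therefore belongs to that average and not to either probe set. The pair of Jund and Jun and the pair of Fosl2 and Fosl1 below were chosen after their values were seen and carry no test.

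Fosl2, which encodes the Fos-related antigen Fra-2 and lacks the strong activation domain of Fos, had the largest rise in the family. It read 1.66, 1.40 and 1.33 on the arrays labelled Sox2 shRNA, and -0.037, 0.042 and -0.088 on the scrambled arrays. The 3 arrays labelled Sox2 shRNA thus lay more than 1 log2 unit above all scrambled arrays. The difference was 1.49 ± 0.11 (95% interval 1.24 to 1.74, limma adjusted p = 6.0e-05). It stayed called in all 15 alternatives, between 1.21 after spike-in adjustment and 1.56 without Sox2 shRNA array 3. The gene is on chromosome 5 from 32439013 to 32456087 on the plus strand in the files.

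Fosl1, which encodes the related antigen Fra-1 and is itself a target of AP-1, fell while Fosl2 rose. One probe set read -0.93, -0.52 and -0.57 on the arrays labelled Sox2 shRNA, and -0.11, 0.065 and 0.079 on the scrambled arrays. The other read -1.15, -0.67 and -0.63 on the arrays labelled Sox2 shRNA, and -0.37, 0 and 0.47 on the scrambled arrays. Both were lower without overlap, and the scrambled arrays varied over 0.51 in the average of both. That average fell by 0.77 (SE 0.17, limma adjusted p = 0.0091), to 0.587 of the scrambled level. Array 1 was again the lowest, and after spike-in adjustment the value was -0.17 and not called (adjusted p = 0.538). Within arrays, the centred value of Fosl2 minus that of Fosl1 was 2.71, 2.00 and 1.93 on the arrays labelled Sox2 shRNA, and 0.20, 0.0094 and -0.36 on the scrambled arrays.

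Fos, the prototype immediate early gene, moved little but evenly. It read 0.30, 0.34 and 0.35 on the arrays labelled Sox2 shRNA, and -0.027, 0.0099 and -0.060 on the scrambled arrays. The Sox2 shRNA arrays spanned 0.051 and the scrambled arrays 0.070, so that a rise of 0.36 ± 0.077 (1.28-fold) passed the test (limma adjusted p = 0.0087). It was not called without scrambled array 3 (0.34, adjusted p = 0.0537) or after spike-in adjustment, when the value was 0.40 (adjusted p = 0.0734). Fosb, its close relative, read -0.22, 0.084 and 0.038 on the arrays labelled Sox2 shRNA, and -0.11, 0.45 and 0.085 on the scrambled arrays. These overlapped, and the difference of -0.17 ± 0.15 had a 95% interval from -0.53 to 0.18 (limma adjusted p = 0.381), which leaves room for a change of either sign.

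Atf3, a stress-induced factor that pairs with Jun proteins, read -0.62, 0.035 and -0.29 on the arrays labelled Sox2 shRNA, and 0.054, 0 and -0.074 on the scrambled arrays. Array 2 of the Sox2 shRNA group lay among the scrambled arrays and the other two below them. The difference was -0.29 ± 0.16 (limma adjusted p = 0.177), and Atf3 was called lower without Sox2 shRNA array 2 (-0.45, adjusted p = 0.0306). Maff, a small Maf protein without an activation domain of its own, read 0.32, 0.37 and 0.35 on the arrays labelled Sox2 shRNA, and 0.20, -0.020 and -0.16 on the scrambled arrays. The Sox2 shRNA arrays lay close together and the scrambled arrays did not, and the difference was 0.34 ± 0.11 (limma adjusted p = 0.0381). Maff was not called under 9 of 15 alternatives, among them leaving out Sox2 shRNA array 2 or 3 (0.32 and 0.34) or scrambled array 2 or 3 (0.32 and 0.25), centring each array on its median (0.29), the replicate number as a block (adjusted p = 0.0531) and spike-in adjustment (0.23).

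**Figure D2:**
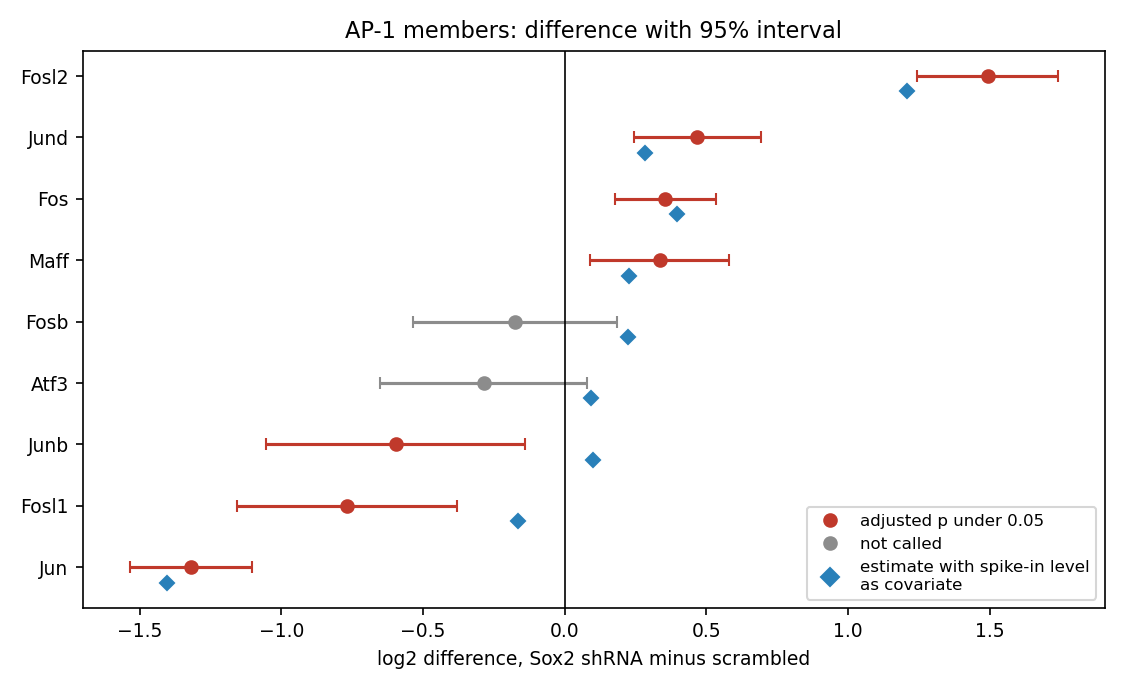
Log2 difference, Sox2 shRNA minus scrambled (horizontal axis), for each AP-1 member, with its 95% interval from limma (n = 3 arrays per group), red where the adjusted p was under 0.05 and grey otherwise. Blue diamonds give the estimate from the fit that adds each array's spike-in level, at 1.21 for Fosl2 and -1.40 for Jun, and close to 0 or of turned sign for Fosl1, Junb, Atf3 and Fosb.

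In the fit that adds each array's spike-in level, 1 member was higher and 1 was lower, Fosl2 (1.21, limma adjusted p = 0.00196) and Jun (-1.40, adjusted p = 0.00145). Across all genes that fit left 961 higher and 1166 lower, against 2216 and 2874 without it. A fit with the hybridisation controls alone as the covariate, chosen after seeing the data, also left 1 member higher and 1 lower, with 859 genes higher and 1049 lower. Since the spike-in level separates the groups, the covariate can widen the SE, and a call can be lost without a smaller difference. Fos went from 0.36 (SE 0.077) to 0.40 (SE 0.13), while Fosl1 went from -0.77 (SE 0.17) to -0.17 (SE 0.16). Whether the spike-in level accounts for any difference was not tested. No further test of the spike-in difference was run, since the groups did not overlap in it.

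**Figure D3:**
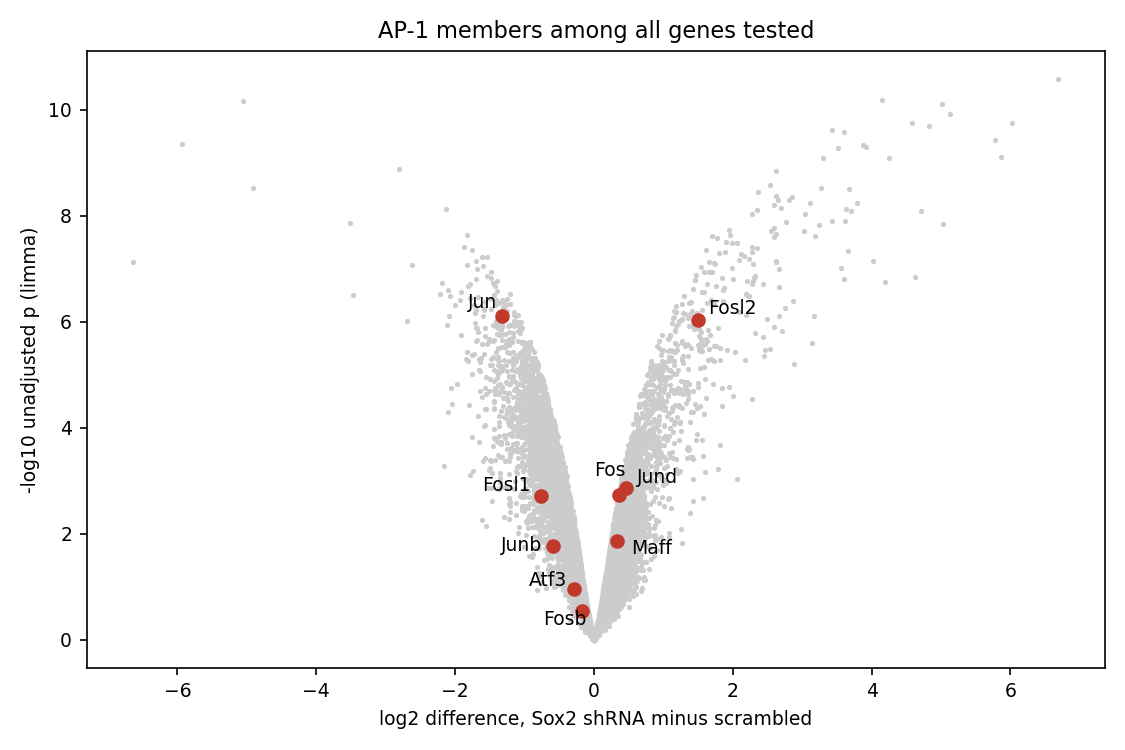
Log2 difference, Sox2 shRNA minus scrambled (horizontal axis), against -log10 of the unadjusted limma p (vertical axis) for 13213 genes in grey, with the 9 AP-1 members in red. Jun and Fosl2 sit far out on opposite sides, and the other 7 members lie within the bulk of genes.

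The pattern of each called member over the 6 arrays was set by Pearson's r against genes with an SD of at least 0.5, of which there were 1291 beside Jun and Fosl2 and 1292 beside the others. With 6 arrays in 2 groups, a high r mostly repeats the difference between groups, and 71 genes exceeded 0.99 for Fos and 69 for Fosl2. The genes most like Jun were Tmem192 (r = 0.999), Grb10 (0.999) and Mrps16 (0.998), and those most like Fosl2 were Rusc1 (0.999), Klra18 (0.999) and Mfge8 (0.998). For Fos they were Synpo, Tubb2b and Wfs1 (each 0.998), and for Jund Slc4a3, Hs6st2 and Cmpk2 (0.996 to 0.995). Junb ran most like Ncoa6, Adnp2 and Tm9sf1 (0.996 to 0.995), which share its low first array. Fosl1 had weaker matches in Bcar3 (0.989), Srsf4 (0.987) and Magee1 (0.986), and Maff the weakest in Crim1 (0.940), Csf2 (0.925) and Angptl4 (0.922).

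AP-1 genes can be regulated by AP-1 and CREB family dimers, so the RefSeq promoter windows (GRCm38.p6, 250 bases before to 50 after the start) were searched on both strands. The patterns were TGANTCA and the longer TGACNTCA. TGANTCA is wider than TGACTCA, the TPA response element that Jun and Fos dimers bind. Windows were at hand for 8 of the 9 members, 10 in all, and not for Fosl1. None held TGANTCA, which 7.81% of 32851 windows hold, and TGACTCA is held by 5.2%. TGACNTCA, held by 8.83% of windows, was found in Jun and in a pair of Maff windows. A match is a description of letters and not a bound site. The 250 bases before the start of the members with the largest fall and the largest rise are shown in full, with matches in capitals, for Jun at chr4:95052223-95052472 on the minus strand and for Fosl2 at chr5:32136222-32136471 on the plus strand, followed by the stretches around the Maff matches at chr15:79347471-79347518 and chr15:79348337-79348384 on the plus strand.
Jun: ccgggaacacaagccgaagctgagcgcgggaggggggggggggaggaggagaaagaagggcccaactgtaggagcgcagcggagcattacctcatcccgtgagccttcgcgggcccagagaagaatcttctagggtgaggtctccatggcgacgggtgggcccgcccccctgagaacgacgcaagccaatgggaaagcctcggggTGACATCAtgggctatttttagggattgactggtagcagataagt
Fosl2: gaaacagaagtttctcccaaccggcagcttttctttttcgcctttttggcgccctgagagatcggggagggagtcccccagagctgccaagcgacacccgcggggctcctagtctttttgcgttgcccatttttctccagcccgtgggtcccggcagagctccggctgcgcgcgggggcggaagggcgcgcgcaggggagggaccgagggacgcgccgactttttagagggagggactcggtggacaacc
Maff, upstream match: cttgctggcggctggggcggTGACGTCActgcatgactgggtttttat
Maff, downstream match: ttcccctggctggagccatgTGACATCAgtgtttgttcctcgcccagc
The Jun match TGACATCA begins at position -45 from the annotated start, and those of Maff at -29 and -45. The same 8 letters of the Jun match, counted on both strands, occur in 3.62% of all windows, and those of TGACGTCA in 1.79%.

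Other basic leucine zipper factors related to AP-1 moved in both directions. Of 24 measured, 6 were higher and 5 lower, with a median of 0.16. That is 45.8% called, against 38.5% of all genes (16.8% higher and 21.8% lower). Batf3, which pairs with Jun proteins in immune cells, rose by 1.22 ± 0.13 (limma adjusted p = 3.7e-04), at 1.25, 1.47 and 0.99 on the arrays labelled Sox2 shRNA, and -0.049, 0.14 and -0.034 on the scrambled arrays. Its relative Batf rose by 0.61 ± 0.12 and Cebpd by 0.64 ± 0.099. Atf5 fell by 1.10 (SE 0.18), Mafg, a small Maf like Maff, by 0.60 (SE 0.12), and Atf2, a partner of Jun, by 0.53 (SE 0.082). The Atf2 value averages 4 probe sets that differ, and the one of largest variance was at -1.29 (SE 0.18). After spike-in adjustment limma called no factor of the list lower (3 at an unadjusted p under 0.05), Cebpd was not called (0.61, adjusted p = 0.054), and Atf5 was at -0.50, Mafg at -0.28 and Atf2 at -0.39.

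Genes of the MAP kinase cascade, which carries signals to AP-1, were lower in 13 of 37 and higher in 4, with a median of -0.062. The share called was 45.9%, against 38.5% of all genes (21.8% lower and 16.8% higher). Map2k1, which encodes the ERK kinase MEK1, fell by 1.06 (SE 0.14, limma adjusted p = 0.0010), at -1.34, -0.96 and -0.85 on the arrays labelled Sox2 shRNA, and -0.16, 0.050 and 0.14 on the scrambled arrays. Map2k5 fell by 0.90 (SE 0.082), the ETS factor Elk3 by 0.73 (SE 0.084) and the Raf kinase gene Araf by 0.62 (SE 0.090, not called after spike-in adjustment, adjusted p = 0.0505). Map2k5 and Elk3 average 3 probe sets each, and those of largest variance were at -1.61 and -1.04. Mapk10, a JNK kinase gene, rose by 0.70 ± 0.079. The rises came to 7 without Sox2 shRNA array 1 and to 2 without any other single array, and the falls to 8 without scrambled array 2 or 3 and to 5 after spike-in adjustment.

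MAP kinase phosphatases and other immediate early genes showed small changes. The shares called were 30% and 42.9%, against 38.5% of all genes. Of 10 phosphatases 2 were higher, Dusp3 (0.75 ± 0.091) and Dusp9 (0.40 ± 0.078), and 1 was lower, Dusp6 (-0.46 ± 0.13), an ERK phosphatase induced by ERK itself. Dusp6 was not called without any 1 scrambled array or after spike-in adjustment (-0.10), which also ended the call of Dusp9 (0.33). A further member of that list was lower without Sox2 shRNA array 3, when the falls came to 2. Dusp1 read -0.57, 0.11 and 0.20 on the arrays labelled Sox2 shRNA, and -0.074, 0 and 0.0059 on the scrambled arrays, so that array 1 alone was low (difference -0.067 ± 0.19, limma adjusted p = 0.790). After spike-in adjustment Dusp1 was called higher (0.64, limma adjusted p = 0.0406), 1 of 3 phosphatases then higher. Of 21 other immediate early genes 4 were higher and 5 lower (median 0.038), all by less than 2-fold. Nr4a2 rose by 0.64 ± 0.10 and Sik1 by 0.65 ± 0.14, and Klf4, a zinc finger factor, by 0.56 ± 0.14 (limma adjusted p = 0.0180), while Myc fell by 0.59 (SE 0.11) and Arc by 0.71 (SE 0.13). After spike-in adjustment 2 were higher and 1 lower, and Nr4a2 (0.38), Sik1 (0.28) and Myc (-0.37) were not called. Klf4 was at 0.97 after that adjustment (adjusted p = 0.0150), and it was not called without Sox2 shRNA array 2 (0.47, adjusted p = 0.0523) or without any 1 scrambled array (0.52 to 0.59, adjusted p between 0.0517 and 0.0747). Egr1, induced with Fos in most responses, was at -0.28 ± 0.10 (limma adjusted p = 0.0583), and it was called lower without Sox2 shRNA array 3 (-0.37, adjusted p = 0.0185). The rises came to 8 without Sox2 shRNA array 1 and to 2 without any 1 scrambled array, and the falls to 2, 3 and 2 without scrambled array 1, 2 or 3.

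Genes that textbooks list as AP-1 targets split evenly, with 7 higher and 7 lower of 30 and a median of 0.061. Called were 46.7% of the list, against 38.5% of all genes. The higher ones had the larger changes, 5 of them at least 2-fold against 1 of the lower. Over all genes 2.68% were called at least 2-fold higher and 3.62% at least 2-fold lower. The stromelysin gene Mmp3 read 5.47, 6.09 and 6.10 on the arrays labelled Sox2 shRNA, and -0.013, -0.032 and 0.098 on the scrambled arrays (limma adjusted p = 6.1e-07). The related Mmp10 read 5.12, 5.14 and 5.21 on the arrays labelled Sox2 shRNA, and 0.26, -0.13 and -0.072 on the scrambled arrays. The collagenase gene Mmp13 read 3.93, 4.83 and 4.99 on the arrays labelled Sox2 shRNA, and -0.13, -0.17 and 0.17 on the scrambled arrays. All 3 proteases, whose genes lie close together on chromosome 9, and the cytokine gene Il6 (2.71 ± 0.21), rose while Jun and Fosl1 fell and Fosl2 rose. Ccnd3, a G1 cyclin gene, fell by 1.09 (SE 0.12). The rises came to 11 without Sox2 shRNA array 1, and the falls to 3 after spike-in adjustment.

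TGANTCA was found in the windows of 7 of the 22 target genes that had one, and the same 7 matched TGACTCA. They were 4 of 5 higher genes (Mmp3, Mmp10, Mmp13 and Il6), 0 of 6 lower genes and 3 of 11 genes that were not called (Ezr, Gja1 and Plaur). Of all 32851 windows, 7.81% hold TGANTCA and 5.2% hold TGACTCA, counted per window and not per gene. The 3 proteases are related genes close together on chromosome 9, so they are not independent examples. The Il6 match begins at position -249, at the far edge of its window. The list was written down from textbook knowledge in which these proteases are the standard examples of the TPA response element. It was also chosen with earlier results of these data known, so the split between higher and lower genes is not an independent observation. The counts carry no test. The stretches around the matches in the protease genes are shown with the match in capitals, for Mmp3 at chr9:7445756-7445802, Mmp10 at chr9:7502259-7502305 and Mmp13 at chr9:7272459-7272505, all on the plus strand of GRCm38.p6.
Mmp3: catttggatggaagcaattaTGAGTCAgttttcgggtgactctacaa
Mmp10: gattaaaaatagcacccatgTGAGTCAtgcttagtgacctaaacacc
Mmp13: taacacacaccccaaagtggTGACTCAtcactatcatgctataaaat
The matches begin at positions -46, -63 and -35 from the annotated starts.

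**Figure D4:**
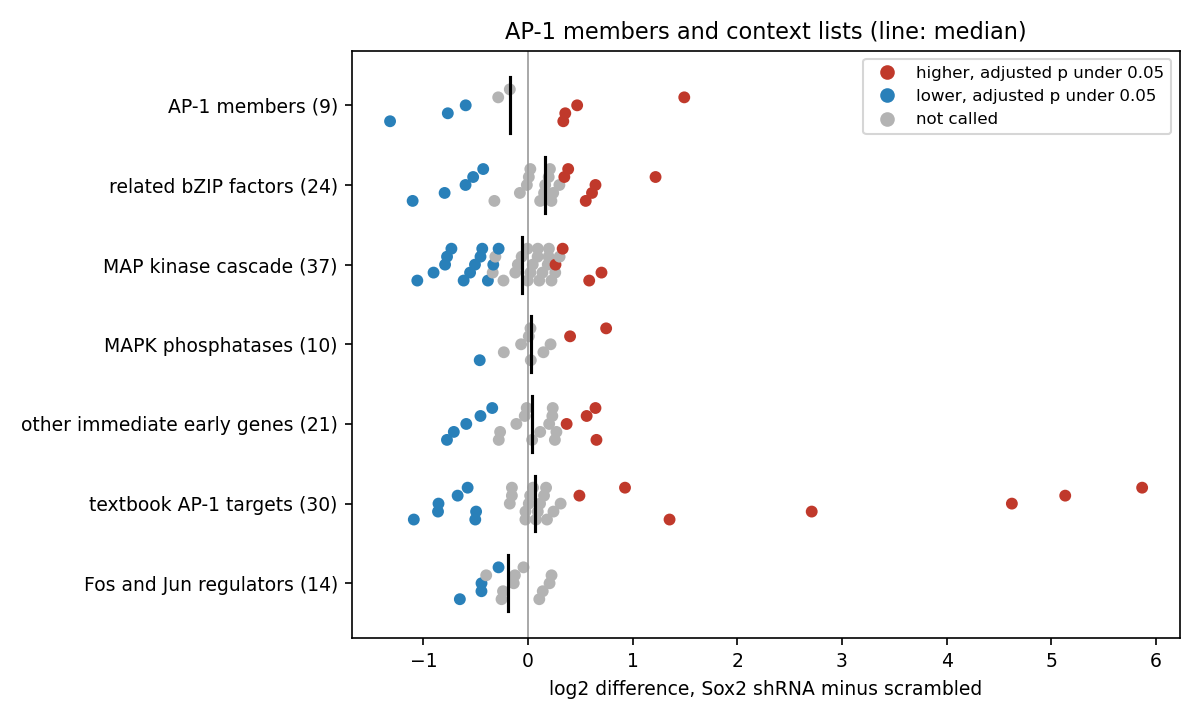
Log2 difference, Sox2 shRNA minus scrambled (horizontal axis), of each measured gene in the AP-1 family and the 6 context lists, red where called higher, blue where called lower and grey where not called, with a line at each list's median and the number of genes in brackets. Vertical scatter within a list only separates points. The targets at the far right are Mmp3, Mmp10, Mmp13 and Il6.

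Genes listed as regulators of Fos and Jun proteins were lower in 4 of 14 and higher in 0 by limma (1 higher at an unadjusted p under 0.05), with a median of -0.19 (7 lower without Sox2 shRNA array 3 and 2 higher without Sox2 shRNA array 1). The share called was 28.6%, below the 38.5% of all genes. Men1, whose product menin binds Jund and restrains its activation, fell by 0.65 (SE 0.14, limma adjusted p = 0.0083), where Jund itself rose. Zfand5 (-0.45 ± 0.084) and Csnk2a2 (-0.28 ± 0.085) were also lower, the last not called without any 1 scrambled array. Zfand5 averages 3 probe sets, and its value ran from -0.96 to -0.33 over the 15 alternatives. Whether each listed gene acts on Fos or Jun was not checked, Zfand5 among them. After spike-in adjustment limma called no gene of this list lower (1 at an unadjusted p under 0.05) and 1 higher, with Men1 at -0.16.

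Markers of other cell types that could express AP-1 genes were also read. For comparison, 38.5% of all genes were called, 16.8% higher and 21.8% lower. Of 7 macrophage markers 2 were higher, Csf1r (0.76 ± 0.084) and Adgre1 (0.36 ± 0.12), and Cd14 was lower (-0.83 ± 0.13), with the list median between 0.052 and 0.21 on the arrays labelled Sox2 shRNA and between -0.046 and 0.042 on the scrambled arrays. Adgre1 was not called without any 1 scrambled array or after spike-in adjustment (-0.015), and Cd14 was not called after that adjustment (-0.51). Of 6 endothelial markers limma called 0 (1 at an unadjusted p under 0.05). Of 6 epithelial markers Krt8 was higher (0.34, not called without scrambled array 1 or 3 or after spike-in adjustment), and of 4 muscle markers Des (0.55). Of 8 markers of the osteoblast lineage 2 were higher and 2 lower. The collagen gene Col1a1 rose by 3.52 ± 0.096 and the alkaline phosphatase gene Alpl by 0.99 ± 0.12, while the homeobox gene Dlx5 fell by 2.69 (SE 0.20) and the collagen gene Col1a2 by 0.42 (SE 0.13). Col1a2 was not called without any 1 scrambled array (-0.48 to -0.36) or after spike-in adjustment (0.016), and the other 3 calls held in all 15 alternatives. Whether any of these transcripts was above background is unknown from centred values, and their part in the AP-1 differences was not tested.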

How the data were processed

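The authors hybridised cRNA to 1-colour Affymetrix mouse arrays, per the labels' protocols. GCOS 1.4 and RMA are named per the submitters' processing notes, without settings or log base. The deposited values were taken as log2, as RMA returns, and had been centred per probe set, as the values show (scrambled array 2 is exactly 0 in 37.5% of probe sets). Both deposited tables held equal values within 1e-05. Control probe sets (64) were left out. Probe sets naming 1 gene were averaged per gene (13213 genes, symbols updated by Entrez number to RefSeq). Groups were compared with limma 3.58.1 (R 4.3.3, lmFit and eBayes, no covariate) over all genes, with Benjamini-Hochberg adjustment and a threshold of 0.05. Differences are Sox2 shRNA minus scrambled, ± SE, n = 3 arrays per group, and the number of arrays limits the precision. Single array measures were compared with an exact permutation test. The scripts were tested on simulated data. The members, the lists and the naming rule (all members, Sox2, the up to 5 called genes of smallest adjusted p per list, Egr1, Dusp1, Mmp3 and Mmp13, and the 3 most alike genes per called member) were chosen with earlier results of these data known. Batf, Adgre1, Csf1r, Cd14, Krt8, Des, Col1a1, Alpl, Dlx5, Col1a2, Ezr, Gja1 and Plaur were named outside that rule, after their values were seen. A gene of the regulator list is not reported here by name. Replicate numbers did not pair the arrays: deviations of same-numbered arrays correlated at 0.12, -0.025 and 0.17. Figures were drawn with matplotlib 3.10.9.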

Additional observations from a re-analysis of the deposited data

How the results depend on the processing

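Jun and Fosl2 kept their direction and their call under all 15 alternatives. These include the second deposited table, whose equal values fixed the outcome. Fosl2 has 1 probe set, so choosing the probe set of largest variance also left its value at 1.49. Neither gene has an _x_at or _s_at probe set, so leaving those out kept Fosl2 at 1.49 and Jun at -1.32. The robust limma fit and the replicate block kept the same values. These settings could alter the SE and the call but not the difference. The spike-in covariate left 1 AP-1 member higher and 1 lower, 961 genes higher and 1166 lower, and the hybridisation control covariate, chosen after seeing the data, left 1 and 1 members and 859 and 1049 genes. At least 2-fold were 1 member higher, 1 lower, 354 genes higher and 478 lower, and at an adjusted p under 0.01 there were 1058 higher and 1848 lower genes. With the spike-in covariate Fosb was at 0.23, Junb at 0.10, Atf3 at 0.091 and Dusp1 at 0.64 (adjusted p = 0.0406), all of turned sign, and with the hybridisation control covariate they were at 0.24, 0.070, 0.091 and 0.61. Adgre1 was at -0.015 and -0.0096 with those covariates, and Col1a2 at 0.016 and 0.015. Dusp1 was also at 0.097 with array weights, and it ran from -0.21 to 0.17 as each array was left out.

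Spike-in and hybridisation control covariates gave, for related bZIP factors, 2 higher with the second and 0 lower with both. For the MAP kinase cascade they gave 5 lower with both and 2 higher with the second, and 2 were higher with arrays centred on their median. Phosphatases gave 0 lower with both, other immediate early genes 2 and 1 higher and 1 and 1 lower, AP-1 targets 3 and 2 lower, and Fos and Jun regulators 1 higher and 0 lower with both. The cause was not tested.

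Leaving out each array in turn gave 2 to 4 members higher and 2 to 4 lower, and 1155 to 2695 genes higher and 1944 to 3135 lower. The lists gave 4 to 9 higher and 4 to 5 lower for bZIP factors, 2 to 7 and 8 to 16 for the MAP kinase cascade, 2 to 2 and 0 to 2 for phosphatases, 2 to 8 and 2 to 7 for immediate early genes, 7 to 11 and 7 to 7 for targets, and 0 to 2 and 3 to 7 for regulators. With the replicate block 3 members were higher and 3 lower, Maff being lost (adjusted p = 0.0531), and of the other genes named only Csnk2a2 (0.0654) lost its call; the genes called came to 2136 higher and 2784 lower. Members with a promoter match were 0 for TGANTCA and TGACTCA and 2 for TGACNTCA.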
